A study of Homo sapiens with 18 samples.

Results

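Integrins are the receptors that hold epithelial cells to the matrix beneath them, and 10 of their chains are described here in a lung cancer line treated with PRT3789, a degrader selective for the chromatin remodelling ATPase SMARCA2. The chains were chosen by gene symbol, with earlier results of these data known. They are α and β chains that epithelial cells use: ITGA2, ITGA3, ITGA5, ITGA6, ITGAV, ITGB1, ITGB4, ITGB5, ITGB6 and ITGB8. These are 10 of the 43236 gene symbols in the table of counts, and all 10 passed the filter on low counts, which left 16291 genes. The cells were NCI-H1693, a human line grown from a non-small cell lung tumour and, per the labels, deficient in SMARCA4, the other ATPase of the same remodelling complexes. Treated and control cells alike carry that deficiency, and 1 line was used. Polyadenylated RNA was sequenced after PRT3789 at 50 nM for 6 h, 48 h or 72 h and after DMSO, the solvent, for the same times, with 3 libraries in each of the 6 groups. The labels do not say that replicates were separate cultures, so each p measures the spread between these libraries, which may be technical.

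Each integrin is a pair of 1 α and 1 β chain, and the pair decides what is bound. ITGB1 is the common partner of ITGA2 (a collagen receptor), ITGA3 and ITGA6 (laminin receptors) and ITGA5 (a fibronectin receptor). ITGB4 pairs with ITGA6 and anchors hemidesmosomes, the junctions that tie keratin filaments to laminin. ITGAV pairs with ITGB5, a vitronectin receptor chain, and with ITGB6 and ITGB8, whose pairs bind latent TGF-β and release or expose the active cytokine. The messenger level of a chain is not its amount at the surface, which depends on pairing in the endoplasmic reticulum and on recycling.

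Libraries held 23154484 to 31094797 counts, and the 10 chains together took 0.307% to 0.461% of them. The epithelial markers were high in every library, with KRT8 at 1757 CPM or more and EPCAM at 558 CPM or more, where CPM is a gene's count scaled to the library total. The lung markers NKX2-1, NAPSA and SFTPB summed to at most 3.98 CPM in any library. The blood markers summed to at most 2.94 CPM, with HBB at 0 in all 18 libraries and LYZ at 15 to 46 counts. The endothelial markers summed to 0.170 to 0.243 CPM in PRT3789 libraries and 2.65 to 3.36 CPM in DMSO libraries at 72 h. Of the fibroblast markers LUM was at 61.4 to 128 CPM in every library, and the 5 summed to 99.96 to 113 CPM in PRT3789 libraries and 119.7 to 130.1 CPM in DMSO libraries at 72 h. The summed level of the 6 epithelial markers lay between 4134 and 4356 CPM in the PRT3789 libraries at 72 h, against 9157 to 9934 CPM in the DMSO libraries. KRT8 and KRT18 made up most of that sum. Over all 18 libraries KRT8 ranged from 1757 to 5311 CPM and KRT18 from 1290.5 to 4311 CPM. EPCAM ranged from 558 to 929 CPM and KRT19 from 297 to 442 CPM. The part of these marker levels in the results below was not tested. In bulk RNA, fewer cells of a type and less RNA per cell cannot be told apart. KRT5, a squamous keratin, reached 100 counts or more in 6 libraries (PRT3789 at 6 h replicate 3 and at 72 h replicate 1, DMSO at 48 h replicates 1 and 2 and at 72 h replicates 2 and 3) and 1 to 33 counts in the others. Counts of calls at 72 h that differ without these 6 libraries are given beside them, except for the genes of TGF-β, where the median is given. SMARCA2 messenger differed by a log2 fold change of 0.04 at 6 h and -0.19 at 48 h, neither called, and fell by 0.44 at 72 h (adjusted p = 0.00108). A messenger does not check a degrader of the protein.

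ITGB1 was the most abundant of the 10 chains in every group. Compared per kilobase of transcript, it stood at 781 ± 24.1 CPM per kb in PRT3789 cells and 700.2 ± 19.3 CPM per kb in DMSO cells at 72 h (SD, n = 3 each). At 6 h the order of all 10 was the same in PRT3789 and DMSO cells, with ITGA3 and ITGAV next and ITGB8 and ITGA5 last. At 72 h the order beneath ITGB1 differed between the treatments. In PRT3789 cells at 72 h the next were ITGAV at 43.4 and ITGA3 at 42.2 CPM per kb, whose ranges overlapped, then ITGB4 at 29.4, ITGA6 at 18.2, ITGB8 at 10.7 and ITGB5 at 8.31 CPM per kb. The lowest in those cells were ITGA2 at 5.69, ITGB6 at 3.89 and ITGA5 at 0.776 CPM per kb. In DMSO cells at 72 h the order was ITGA3 at 158, ITGB4 at 67.9 and ITGAV at 48.9 CPM per kb, then ITGA6 at 16.3 and ITGB6 at 14.3 CPM per kb, whose ranges overlapped. Below these in DMSO cells came ITGB5 at 11.6, ITGA2 at 8.42, ITGB8 at 5.07 and ITGA5 at 2.64 CPM per kb. ITGB8 thus stood above ITGB6 in the PRT3789 cells and below it in the DMSO cells at 72 h.

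**Figure D1:**
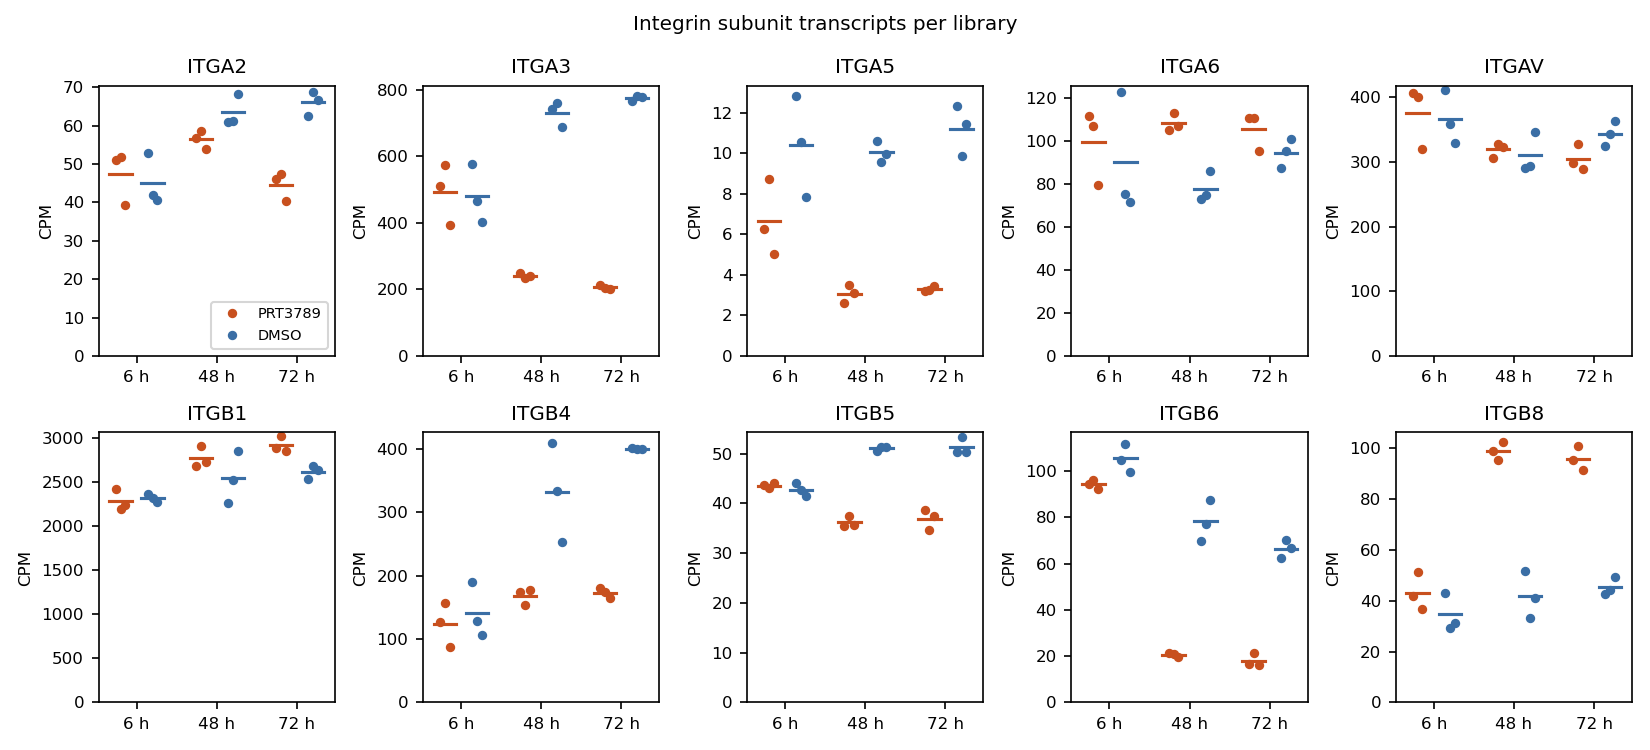
CPM of each integrin chain (y axis, linear, starting at 0) by time (x axis), with 1 point per library, orange for PRT3789 and blue for DMSO, and a bar at the mean of 3 libraries. At 72 h ITGA3 lay at 201 to 214 CPM in PRT3789 libraries and at 765 to 782 CPM in DMSO libraries, while ITGB8 lay at 91.5 to 100.85 CPM and 42.7 to 49.2 CPM.

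At 6 h none of the 10 chains was called by edgeR at an adjusted p under 0.05, while 4.33% of all tested genes were. Of the 10, 1 (ITGA5) had an unadjusted p under 0.05, and DESeq2 and limma-voom each called 1, also ITGA5. At 48 h ITGA6 and ITGB8 rose and ITGA3, ITGA5, ITGB4, ITGB5 and ITGB6 fell, 7 of 10 called against 42.1% of all genes (21.2% higher and 20.9% lower). At 72 h ITGB8 rose and ITGA2, ITGA3, ITGA5, ITGB4, ITGB5 and ITGB6 fell, again 7 of 10, against 43.4% of all genes (21.3% higher and 22% lower). The median log2 fold change of the 10 chains was -0.33 at 48 h and -0.52 at 72 h, beside 0.01 and 0.01 over all tested genes. As the chains were chosen with earlier results known, these comparisons with all genes are a description only. Without the 6 libraries with KRT5, 5 of 10 were called at 48 h (1 higher, 4 lower) and 7 of 10 at 72 h (1 higher, 6 lower). That leaves 1 DMSO library at each of these times, whose spread is assumed to be that of the other groups.

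**Figure D2:**
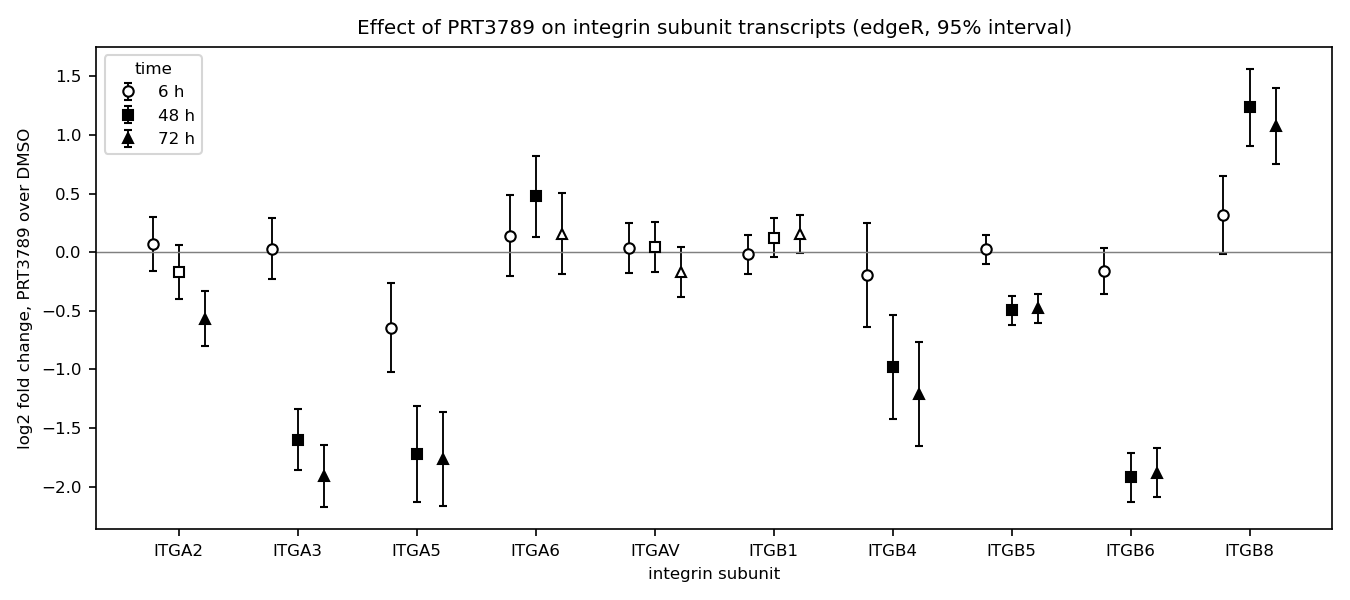
Log2 fold change of PRT3789 over DMSO (y axis) for each chain (x axis) at 6 h (circles), 48 h (squares) and 72 h (triangles), with 95% intervals from edgeR; filled symbols passed an adjusted p under 0.05. All 6 h symbols are open; at 72 h ITGB8 stands at 1.08 and ITGA3 and ITGB6 stand lowest, at -1.91 and -1.88.

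ITGA3 fell furthest of the laminin-binding chains. The gene lies on chromosome 17 (GRCh38.p14, 50056110 to 50090481). At 48 h it had 250.4, 233 and 239 CPM in the 3 PRT3789 libraries, against 743, 759 and 687 CPM in the DMSO libraries. At 72 h the PRT3789 libraries had 214, 204 and 201 CPM and the DMSO libraries 765, 782 and 777 CPM. The groups did not overlap at either time, as for 56.2% of all genes at 48 h and 61.9% at 72 h. PRT3789 over DMSO gave a log2 fold change of -1.60 ± 0.12 at 48 h (SE, adjusted p = 1.45e-08) and -1.91 ± 0.13 at 72 h (adjusted p = 1.34e-09), or 3.03-fold and 3.76-fold lower. At 6 h the same gene had 511, 574 and 392 CPM with PRT3789 and 578, 465 and 401 CPM with DMSO, ranges that lay across each other (0.03 ± 0.12, adjusted p = 0.938).

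ITGB4, the hemidesmosome chain, lies on the same chromosome (75721459 to 75757818) and fell at both later times. At 48 h it had 174, 155 and 177 CPM in PRT3789 libraries, against 409.99, 335 and 254 CPM in DMSO libraries. The DMSO libraries were widely spread there, with replicate 3, the one with 12 KRT5 counts, the lowest and replicate 1, with 470 KRT5 counts, the highest. At 48 h the log2 fold change was -0.98 ± 0.21 (adjusted p = 0.00122, 1.97-fold lower), and -0.60 with an adjusted p of 0.092 without the 6 libraries with KRT5. At 72 h the PRT3789 libraries had 181, 174 and 165 CPM and the DMSO libraries 401, 400.02 and 400.04 CPM. These DMSO libraries had 6, 478 and 404 KRT5 counts at nearly equal ITGB4. Whether ITGB4 goes with KRT5 was not tested. The difference at 72 h was -1.21 ± 0.21 (adjusted p = 0.000173, 2.31-fold lower), and -1.25 without the 6 libraries.

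ITGA6, the partner of ITGB4 (chromosome 2, 172427336 to 172506459), rose at 48 h by a small amount. It had 105, 113 and 107 CPM in PRT3789 libraries and 72.9, 74.8 and 86.2 CPM in DMSO libraries, with no overlap. This was a log2 fold change of 0.48 ± 0.16 (adjusted p = 0.0267, 1.39-fold higher). It missed the threshold without any 1 of the PRT3789 48 h libraries (adjusted p = 0.0571, 0.0839 and 0.0656 without replicates 1, 2 and 3), without DMSO 48 h replicate 1 (0.0816) or 2 (0.0891), and without the 6 libraries with KRT5 (0.356). At 72 h ITGA6 had 111, 110.9 and 95.4 CPM with PRT3789 and 87.6, 95.5 and 101 CPM with DMSO, which overlapped (0.16, 95% interval -0.19 to 0.50, adjusted p = 0.465). Per kilobase, ITGB4 stood at 1.62 ± 0.08 times ITGA6 in PRT3789 cells and 4.19 ± 0.31 times in DMSO cells at 72 h (SD, n = 3 each), and at 1.22 ± 0.20 and 1.55 ± 0.12 times at 6 h.

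ITGA2, the collagen-binding chain (chromosome 5, 52989352 to 53094779), fell by a small amount at 72 h. It had 46.0, 47.5 and 40.4 CPM in PRT3789 libraries and 62.6, 68.8 and 66.7 CPM in DMSO libraries, without overlap. Its log2 fold change was -0.57 ± 0.11 (adjusted p = 0.000402, 1.48-fold lower). At 48 h its values were 56.8, 58.6 and 53.9 CPM with PRT3789 and 60.8, 61.2 and 68.2 CPM with DMSO, a log2 fold change of -0.17 (95% interval -0.40 to 0.06, adjusted p = 0.228).

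ITGA5, the fibronectin-binding chain (chromosome 12, 54395261 to 54419266), was the least abundant of the 10 in every group and fell at both later times. At 72 h it had 3.23, 3.23 and 3.44 CPM in PRT3789 libraries, which is 93, 95 and 99 counts, and 12.3, 9.86 and 11.5 CPM in DMSO libraries, which is 350, 264 and 345 counts. The groups were far apart, with a log2 fold change of -1.72 ± 0.19 at 48 h (adjusted p = 1.36e-06, 3.30-fold lower) and -1.76 ± 0.19 at 72 h (adjusted p = 6.9e-07, 3.40-fold lower). ITGA5 was also the chain nearest the threshold at 6 h, with 6.27, 8.73 and 5.05 CPM with PRT3789 and 12.8, 10.5 and 7.85 CPM with DMSO. Those ranges overlapped, with PRT3789 replicate 2 above DMSO replicate 3, and the log2 fold change was -0.64 ± 0.18 (adjusted p = 0.0531). It was called in 6 of 29 alternatives, with DESeq2 (adjusted p = 0.0222), limma-voom (0.0476), without DMSO replicate 3 (0.0146) and without PRT3789 replicate 2 (0.00739) among them. It was not called in the other 23, where the adjusted p reached 0.528 with each time fitted apart and was 0.304 without the 6 libraries with KRT5.

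ITGB6 and ITGB8, the αv partners that bind latent TGF-β, moved in opposite directions. Their promoter windows are shown here. That of ITGA5 is added, the only chain with an entry whose window matched both motifs named below. The RefSeq windows (GRCh38.p14) hold 250 bases before a listed transcript start and the first 30 bases from it, 5′ to 3′ on the gene's strand. For ITGB6 and ITGA5 that start is the end of the gene's annotated span, and for ITGB8 it lies inside the span; 8 of the 10 chains had an entry, ITGA3 and ITGB4 being the others. Capitals mark matches to TGANTCA, the AP-1 motif, and GGAATG, the TEAD motif, both searched on both strands. ITGB6 is read at chr2:160200243-160200522 on the minus strand, ITGB8 at chr7:20330650-20330929 on the plus strand and ITGA5 at chr12:54419237-54419516 on the minus strand.
ITGB6: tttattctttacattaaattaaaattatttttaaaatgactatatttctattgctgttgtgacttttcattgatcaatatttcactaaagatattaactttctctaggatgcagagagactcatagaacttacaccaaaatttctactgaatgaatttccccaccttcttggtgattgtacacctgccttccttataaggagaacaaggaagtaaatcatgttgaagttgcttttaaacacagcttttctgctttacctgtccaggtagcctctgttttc
ITGB8: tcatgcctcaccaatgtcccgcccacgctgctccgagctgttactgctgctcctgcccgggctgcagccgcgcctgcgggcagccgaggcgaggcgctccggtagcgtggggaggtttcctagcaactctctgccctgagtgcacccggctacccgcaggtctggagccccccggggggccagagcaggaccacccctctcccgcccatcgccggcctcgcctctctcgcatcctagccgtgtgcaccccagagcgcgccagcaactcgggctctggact
ITGA5: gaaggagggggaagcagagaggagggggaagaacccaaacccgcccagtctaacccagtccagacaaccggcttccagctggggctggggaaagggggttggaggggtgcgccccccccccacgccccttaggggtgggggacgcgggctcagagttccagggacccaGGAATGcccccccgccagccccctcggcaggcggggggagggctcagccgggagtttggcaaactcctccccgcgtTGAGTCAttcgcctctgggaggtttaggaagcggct

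The ITGB6 window had 32.1% G and C and 0 CpG pairs, and 2.25% of 35116 promoter windows had a lower G and C content. The ITGB8 window had 70.7% G and C and 24 CpG pairs, above the median of 58.2% over all windows. The ITGA5 window had 68.6% G and C, 14 CpG pairs, an AP-1 match beginning 6 bases before that start and a TEAD match beginning 82 bases before it. Neither set of letters was found in the ITGB6 and ITGB8 windows, and of the windows of the other chains, an ITGB1 window held the TEAD motif. Of all windows, 7.35% held the AP-1 motif and 13.3% the TEAD motif. A match is a description of the letters and not of binding.

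ITGB6 (chromosome 2, 160099671 to 160200272), a chain largely restricted to epithelia, fell. At 48 h it had 21.2, 21.04 and 19.8 CPM in PRT3789 libraries, against 69.8, 77.3 and 87.6 CPM in DMSO libraries. At 72 h the values were 16.7, 21.2 and 16.2 CPM with PRT3789 and 62.3, 70.3 and 66.7 CPM with DMSO. No PRT3789 library came near a DMSO library. The log2 fold change was -1.92 ± 0.10 at 48 h (adjusted p = 7.56e-11, 3.79-fold lower) and -1.88 ± 0.10 at 72 h (adjusted p = 8.73e-11, 3.68-fold lower). At 6 h it had 94.5, 96.04 and 92.1 CPM with PRT3789 and 105, 112 and 99.7 CPM with DMSO. These ranges did not overlap, as for 14.7% of all genes at that time, but the difference was not called (-0.16, 95% interval -0.36 to 0.03, adjusted p = 0.472).

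ITGB8 (chromosome 7, 20329766 to 20415754) rose. At 48 h it had 98.98, 95.6 and 103 CPM in PRT3789 libraries, against 51.9, 33.2 and 41.2 CPM in DMSO libraries. At 72 h it had 95.5, 100.85 and 91.5 CPM with PRT3789 and 42.7, 44.4 and 49.2 CPM with DMSO. Every PRT3789 library was above every DMSO library at both times. The log2 fold change was 1.24 ± 0.16 at 48 h (adjusted p = 5.42e-06, 2.36-fold higher) and 1.08 ± 0.15 at 72 h (adjusted p = 2.06e-05, 2.11-fold higher). At 6 h the values were 41.9, 51.3 and 36.6 CPM with PRT3789 and 43.3, 29.3 and 31.4 CPM with DMSO. The ranges overlapped through DMSO replicate 1, and ITGB8 was not called (0.32 ± 0.16, adjusted p = 0.369). Without that library the log2 fold change was 0.54 (adjusted p = 0.0436), and 574 genes were called higher, against 209 with it. In the other 28 of 29 alternatives ITGB8 was not called at 6 h.

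ITGB5 (chromosome 3, 124761948 to 124901418) fell by less than ITGB6. At 72 h it had 38.6, 34.6 and 37.5 CPM in PRT3789 libraries and 50.3, 53.3 and 50.4 CPM in DMSO libraries. The groups were apart, and so were they at 48 h. The log2 fold change was -0.50 ± 0.06 at 48 h (adjusted p = 2.42e-06, 1.41-fold lower) and -0.48 ± 0.06 at 72 h (adjusted p = 3.28e-06, 1.39-fold lower). ITGAV, the α chain these β chains share (chromosome 2, 186590056 to 186680901), was not called at any time. At 72 h it had 299, 328 and 289 CPM with PRT3789 and 325, 343 and 364 CPM with DMSO, which overlapped. The 95% interval of its log2 fold change was -0.17 to 0.26 at 48 h and -0.39 to 0.04 at 72 h. With the 72 h libraries fitted apart ITGAV was called lower (-0.18, adjusted p = 0.00712), in 1 of 29 alternatives at that time.

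Among ITGB5, ITGB6 and ITGB8, counted per kilobase, ITGB6 made up 16.9 ± 2.09% of the sum in PRT3789 cells and 46.2 ± 0.86% in DMSO cells at 72 h (SD, n = 3 each). ITGB8 made up 46.7 ± 0.84% in PRT3789 cells and 16.4 ± 1.10% in DMSO cells at that time. ITGB5 held 36.4 ± 2.91% and 37.4 ± 1.01%, which overlapped. The ratio of ITGB8 to ITGB6 was 2.96, 2.46 and 2.91 in PRT3789 libraries, against 0.355, 0.327 and 0.382 in DMSO libraries. At 6 h the same ratio was 0.229, 0.276 and 0.206 with PRT3789 and 0.213, 0.135 and 0.163 with DMSO, where the ranges overlapped. Among the 5 α chains, ITGA3 held 38.3 ± 1.61% in PRT3789 cells and 67.5 ± 1.01% in DMSO cells at 72 h, and ITGAV held 39.3 ± 1.46% and 20.8 ± 0.72%. The level of ITGAV itself was not called, and its share also depends on the other α chains. ITGA3 stood at 0.976 ± 0.073 times ITGAV in PRT3789 cells and 3.25 ± 0.16 times in DMSO cells at 72 h.

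**Figure D3:**
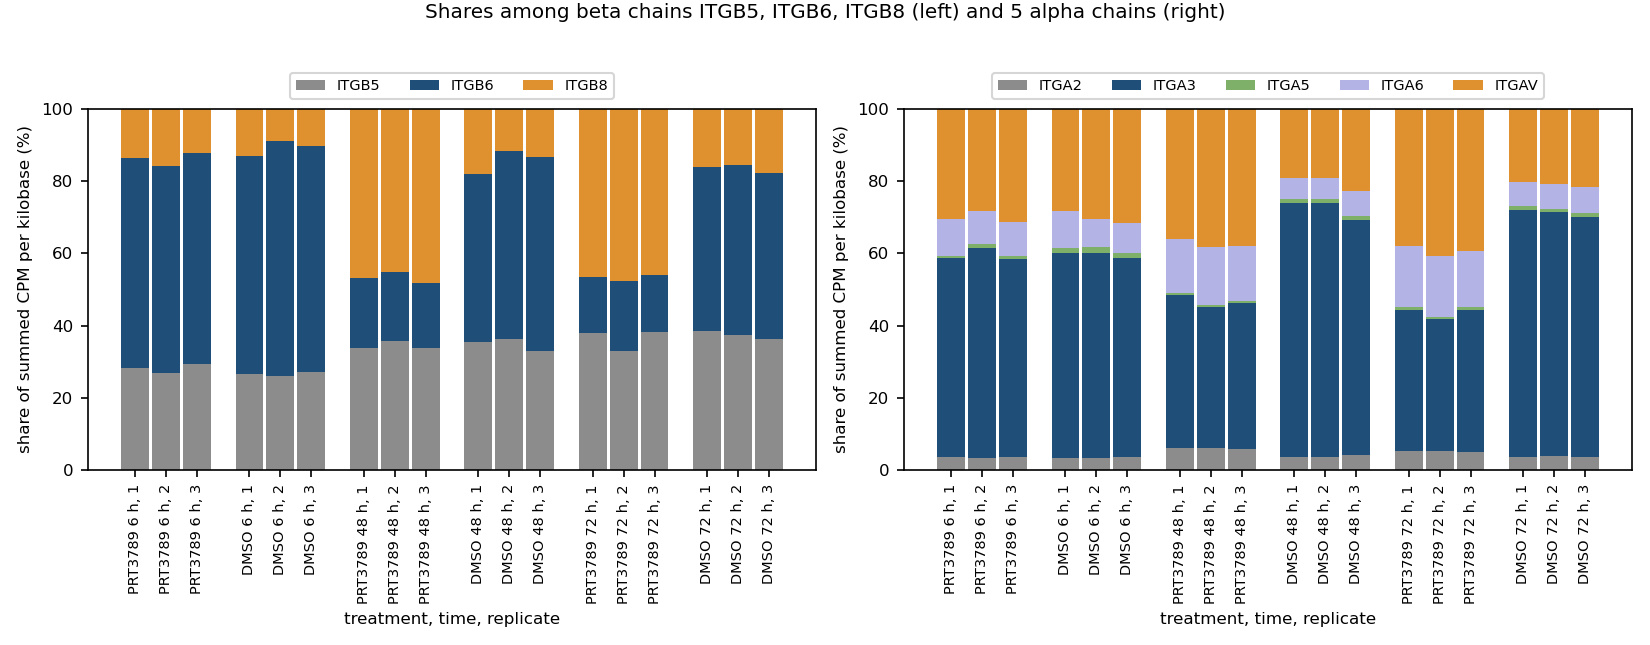
Share of the summed CPM per kilobase (y axis, %) taken by ITGB5, ITGB6 and ITGB8 (left) and by the 5 α chains (right), with 1 stacked bar per library, grouped by treatment and time. At 48 h and 72 h ITGB8 takes 45.1% to 48.2% of the left bars in PRT3789 libraries and 11.6% to 17.96% in DMSO libraries, and ITGA3 takes 36.5% to 42.4% and 65.2% to 70.6% of the right bars.

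ITGB1 (chromosome 10, 32900318 to 32958230) was not called at any time. At 72 h it had 2889, 3018 and 2845 CPM in PRT3789 libraries and 2536, 2677.5 and 2632 CPM in DMSO libraries. The PRT3789 libraries were all higher, as a description, and the log2 fold change was 0.16 ± 0.08 (95% interval -0.01 to 0.32, adjusted p = 0.113). With the 72 h libraries fitted apart the adjusted p was 0.0111, and with each library's trend on transcript length removed it was 0.0222. In the other 27 of 29 alternatives ITGB1 was not called at 72 h. ITGB1 made up 93.7 ± 0.17% of the 5 β chains per kilobase in PRT3789 cells and 87.6 ± 0.17% in DMSO cells at 72 h (SD, n = 3 each). This share also depends on the other β chains, of which ITGB4, ITGB5 and ITGB6 fell and ITGB8 rose. ITGB1-DT, a divergent transcript beside ITGB1 that was looked at after its values were seen, rose by a log2 fold change of 1.30 ± 0.25 at 48 h (adjusted p = 0.000398) and 1.68 ± 0.24 at 72 h (adjusted p = 1.92e-05). It had 7.18, 9.49 and 6.68 CPM with PRT3789 and 2.99, 2.13 and 2.16 CPM with DMSO at 72 h. ITGB8-AS1, named as an antisense transcript of ITGB8 and looked at together with ITGB1-DT, was not called by edgeR. Its log2 fold change was 0.32 at 48 h (adjusted p = 0.479) and 0.49 at 72 h (adjusted p = 0.321).

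The effect of PRT3789 on the chains differed between 6 h and 48 h for 5 of 10 by the interaction test, against 19.2% of all genes. The change of the log2 fold change (48 h minus 6 h) was -1.76 for ITGB6 (adjusted p = 6.38e-08), -1.63 for ITGA3 (2.78e-06), -1.08 for ITGA5 (0.00754), -0.52 for ITGB5 (0.000197) and 0.92 for ITGB8 (0.00667). Without the 6 libraries with KRT5 the change for ITGB8 was 0.83 (adjusted p = 0.0654). Between 48 h and 72 h no chain passed that test, and no gene of the 16291 did (1475 had an unadjusted p under 0.05, with ITGA2 among them).

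Some chains also differed between times without PRT3789, and the cause was not tested. In DMSO at 48 h against 6 h, ITGA2, ITGA3, ITGB4 and ITGB5 rose and ITGB6 fell, 5 of 10 against 37.2% of all genes. Without the 6 libraries with KRT5, 2 were called higher (ITGA2 and ITGB4) and 0 lower. ITGB4 rose the most, by a log2 fold change of 1.23 ± 0.21 (adjusted p = 0.000294), to 409.99, 335 and 254 CPM at 48 h, against 190.3, 129 and 106 CPM at 6 h. Under PRT3789, 6 of 10 chains were called at 48 h against 6 h (56.7% of all genes): ITGB1 and ITGB8 rose, and ITGA3, ITGA5, ITGB5 and ITGB6 fell. With all libraries, ITGA3 and ITGB5 rose with time in DMSO (0.60 and 0.26) and fell with time under PRT3789 (-1.03 and -0.27). ITGB6 fell in both (-0.43 in DMSO and -2.19 under PRT3789). Without the 6 libraries with KRT5 the DMSO values were 0.51 for ITGA3, 0.27 for ITGB5 and -0.27 for ITGB6. ITGB4 under PRT3789 differed by 0.44 over the same time (adjusted p = 0.0806). These comparisons share libraries with those above. The 6 h libraries differed among themselves by transcript length: the rank correlation across genes of a library's deviation with transcript length was 0.396, 0.594 and -0.608 in PRT3789 replicates 1 to 3 and 0.616, -0.474 and -0.588 in DMSO replicates 1 to 3. With that trend removed, the 5 chains called in DMSO were still called, and ITGAV (-0.18) and ITGB8 (0.35) were called as well.

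Of the 16 other integrin genes listed, 8 had enough counts to test, and ITGA8, ITGA9, ITGA10, ITGA11, ITGAD, ITGAL, ITGAX and ITGB7 had at most 11 counts in any library. At 72 h ITGA1, another collagen-binding partner of ITGB1, rose, with 67.5, 73.4 and 63.0 CPM in PRT3789 libraries and 30.3, 33.5 and 34.0 CPM in DMSO libraries (1.06 ± 0.09, adjusted p = 3.25e-08). ITGA1 thus rose and ITGA2 fell, both being collagen-binding chains. ITGB2, the leukocyte β chain, fell to 8.67, 7.96 and 8.80 CPM with PRT3789, against 21.96, 20.9 and 22.9 CPM with DMSO (-1.37 ± 0.11, adjusted p = 1.35e-08). ITGB3, another partner of ITGAV, fell by 0.61 ± 0.14 on the log2 scale (adjusted p = 0.0018). The other 5 were not called at 72 h. Of all tested genes, 43.4% were called at that time. ITGA1 and ITGB2 were still called at 72 h without the 6 libraries with KRT5, and ITGB3 was not.

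Ligands of the laminin-binding chains went both ways. Of 14 tested laminin chains and basement membrane genes, 4 rose and 7 fell at 48 h (21.2% and 20.9% of all genes), and 3 rose and 9 fell at 72 h (21.3% and 22% of all genes), with a median log2 fold change of -0.76 beside 0.01 over all genes. Without the 6 libraries with KRT5, 2 rose and 5 fell at 48 h, and 2 rose and 8 fell at 72 h. NTN4, a netrin that binds laminin, rose to 360.2, 372 and 351 CPM with PRT3789, against 126, 134 and 130.5 CPM with DMSO (1.47 ± 0.05, adjusted p = 8.37e-13). LAMB1 fell (-1.35 ± 0.08, adjusted p = 4.02e-10) and LAMB2, the chain that can take its place, rose (1.11 ± 0.10, adjusted p = 4.53e-08). LAMA3 and LAMB3, laminin chains singled out after their values were seen, fell by 1.40 ± 0.12 and 1.28 ± 0.12 on the log2 scale at 72 h. LAMA3 had 27.5, 26.5 and 24.6 CPM with PRT3789 and 64.5, 70.1 and 72.3 CPM with DMSO.

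Collagens went both ways. Of 10 tested, COL3A1, COL4A5, COL4A6 and COL6A2 rose and COL4A1, COL4A2 and COL5A1 fell at both later times, and the median at 72 h was 0.46. Of all genes, 21.3% rose and 22% fell at 72 h. With the 6 libraries with KRT5 left out, COL5A1 was not called at 72 h, which left 4 higher and 2 lower. COL3A1, a fibrillar collagen, had 21.1, 17.5 and 16.7 CPM with PRT3789 and 1.58, 1.79 and 2.26 CPM with DMSO at 72 h (9.75-fold higher, adjusted p = 6.63e-11). The basement membrane collagens COL4A1 and COL4A2, whose genes are neighbours that share a promoter, fell by 2.41 ± 0.15 and 2.17 ± 0.15 on the log2 scale.

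Of 16 tested ligands of the αv and α5 chains, most of them with the RGD peptide that these integrins bind, 3 rose and 9 fell at 72 h (3 and 7 without the 6 libraries with KRT5), with a median of -0.41. Over all tested genes, 21.3% rose and 22% fell at 72 h. L1CAM, a neural adhesion molecule, fell to 4.86, 4.93 and 5.39 CPM with PRT3789, against 115, 115 and 119.7 CPM with DMSO (22.99-fold lower, adjusted p = 7.75e-12). CCN2, a matricellular protein, was the one member of the list that already fell at 6 h (-0.40 ± 0.07, adjusted p = 0.00241), and it fell by 1.64 ± 0.07 at 72 h. ADAM15, a disintegrin metalloprotease, fell by 0.78 ± 0.09 (adjusted p = 8.35e-07). SPP1 (osteopontin) was also called lower at 72 h, at 4, 4 and 5 counts with PRT3789 and 223, 364 and 484 counts with DMSO, but in other groups it ranged widely among replicates, with 12, 246 and 351 counts with PRT3789 at 6 h. It was singled out after its values were seen.

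Of 7 tested genes of TGF-βs and latent TGF-β binding proteins, TGFB2 and LTBP4 rose and TGFB1, TGFB3, LTBP1 and LTBP2 fell at 72 h. The median was -0.62, and -0.35 without the 6 libraries with KRT5. Shares over all tested genes were 21.3% higher and 22% lower. LTBP4, a latent TGF-β binding protein, had 52.0, 52.1 and 56.4 CPM with PRT3789 and 29.1, 29.0 and 31.7 CPM with DMSO (0.84 ± 0.08, adjusted p = 3.09e-07). It had already risen at 6 h (0.36 ± 0.09, adjusted p = 0.0239). LTBP2 and LTBP1 fell by 1.36 ± 0.17 (adjusted p = 4.6e-06) and 0.65 ± 0.13 (adjusted p = 0.000667). TGFB2, named after its values were seen, had 275, 275 and 241 CPM with PRT3789 and 148, 155 and 157 CPM with DMSO (0.78 ± 0.16, adjusted p = 0.000832).

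Of 7 tested partners of ITGB4 in hemidesmosomes, 3 rose (DST, CD151 and ERBIN) and 1 fell (PLEC) at 72 h. Among all tested genes, 21.3% rose and 22% fell. When the 6 libraries with KRT5 were left out, 1 rose (DST) and 2 fell (PLEC and COL17A1), and CD151 and ERBIN were not called. The list includes KRT5 itself, and its median of -1.01 was -0.44 without the 6 libraries with KRT5, among 6 genes then tested. PLEC encodes plectin, the linker between ITGB4 and keratin filaments. It had 436, 437 and 384 CPM with PRT3789 and 872, 793 and 865 CPM with DMSO (-1.01 ± 0.26, adjusted p = 0.00401), without overlap. DST, which encodes another plakin and whose isoforms the counts merge, had 569, 621 and 551 CPM with PRT3789 and 267, 327 and 387 CPM with DMSO (0.83 ± 0.16, adjusted p = 0.000523). CD151, a tetraspanin that binds ITGA3 and ITGA6, rose by 0.29 ± 0.07 at 72 h (adjusted p = 0.00196).

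Inside the cell, of 16 tested genes of integrin activation and trafficking 7 rose and 3 fell at 72 h, with a median of 0.20. For this list and the adaptors below, the shares over all tested genes were 21.3% higher and 22% lower. FERMT2, a kindlin that binds β tails, rose at 48 h and 72 h (0.50 ± 0.06 and 0.65 ± 0.06, adjusted p = 1.96e-06 and 7.51e-08). At 6 h FERMT2 was called higher close to the threshold (0.22 ± 0.06, adjusted p = 0.0447), with a spread pooled over times. RAP1B, a small GTPase of integrin activation, rose by 0.60 ± 0.08 and PDLIM7 fell by 0.62 ± 0.08 at 72 h. Without the 6 libraries with KRT5, 4 rose and 3 fell. Of 32 tested focal adhesion adaptors, 5 rose and 15 fell at 72 h, with a median of -0.26 (4 and 12 of 31 without those libraries). PXN (paxillin) had 107, 107 and 106 CPM with PRT3789 and 310.1, 308 and 314 CPM with DMSO (-1.54 ± 0.12, adjusted p = 1.64e-08). CAV1 (caveolin) had 411, 413 and 381 CPM with PRT3789 and 145, 139 and 135 CPM with DMSO (1.52 ± 0.08, adjusted p = 5.73e-11), and TES (testin) rose by 0.85 ± 0.05.

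Of 9 tested tetraspanins and other lateral partners of integrins in the membrane, 2 rose (CD151 and BSG) and 6 fell at 72 h, with a median of -0.39; without the 6 libraries with KRT5, 1 rose and 4 fell. Across all tested genes, 21.3% rose and 22% fell at 72 h. CD9 fell to 88.2, 86.0 and 89.4 CPM with PRT3789, against 303, 301 and 279 CPM with DMSO (-1.74 ± 0.09, adjusted p = 1.11e-10). TSPAN4 and SLC3A2, the CD98 heavy chain that binds β tails, fell by 1.10 ± 0.08 and 0.91 ± 0.06.

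**Figure D4:**
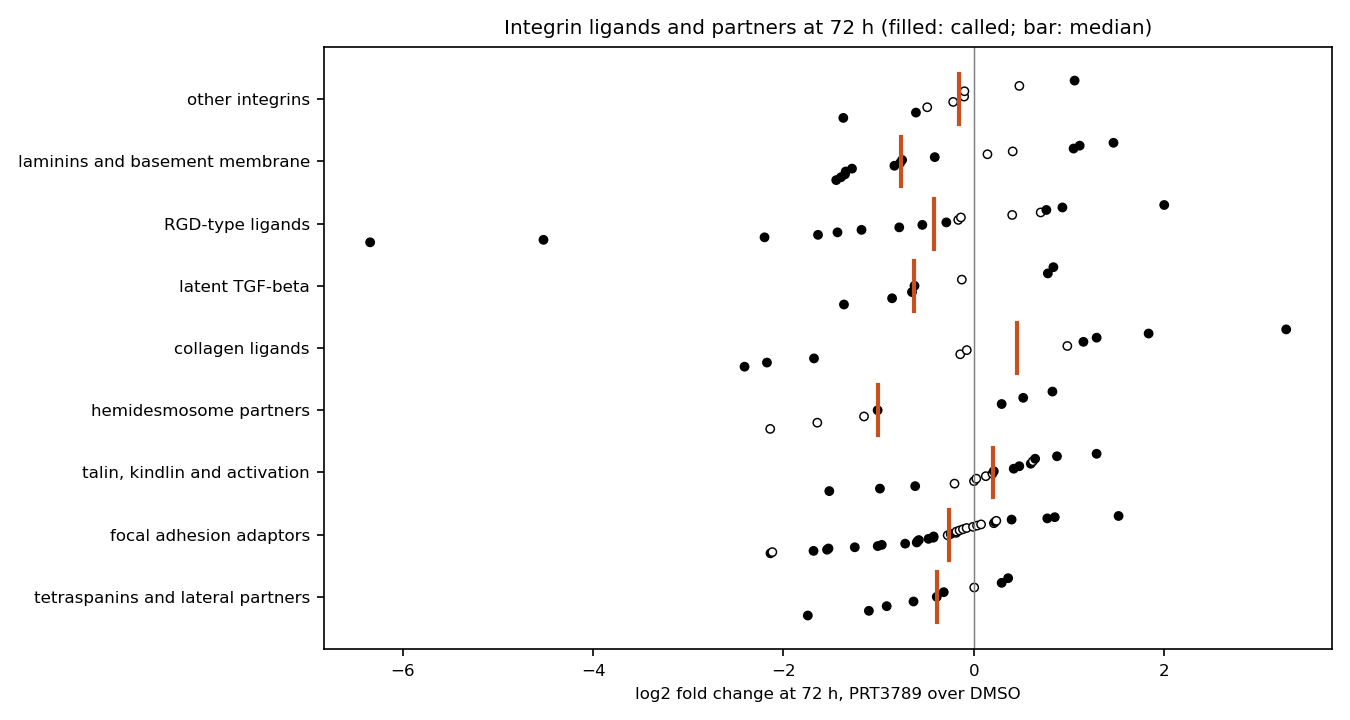
Log2 fold change of PRT3789 over DMSO at 72 h (x axis) for each tested gene of 9 lists of other integrins, ligands and partners (y axis), with 1 point per gene, filled where the adjusted p was under 0.05, and a bar at the list's median. The laminin list has its median at -0.76, the collagen list at 0.46 and the list of focal adhesion adaptors at -0.26; the point farthest left is SPP1 at -6.35.

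The genes most like ITGB8 and ITGA3 over the 18 libraries were found among 10963 genes, by Pearson correlation of log2 CPM; the libraries share treatment and time, so this describes the groups as much as the genes. ITGB8 was nearest to ZNF268 (r = 0.986, rank correlation 0.979), PDE4D (0.985 and 0.963) and SLC30A4 (0.985 and 0.895). ITGA3 was nearest to LOXL2 (0.994 and 0.992), B4GALT1 (0.994 and 0.981) and SLIT3 (0.993 and 0.969). At 72 h PDE4D rose 2.93-fold and LOXL2, a lysyl oxidase, fell by 2.60 ± 0.13 on the log2 scale.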

How the data were processed

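RNA of 18 NCI-H1693 libraries was sequenced as 150 bp pairs. Per the labels and the submitters' processing notes, the authors trimmed with Trim Galore, aligned with STAR to GRCh38 (annotation release 110) and quantified with RSEM in nf-core/rnaseq 3.17.0 with automatic strandedness. The deposited values are expected counts, already whole numbers, for 43236 symbols, of which 16043 were 0 throughout. Groups came from the labels.

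Genes were kept by filterByExpr (16291), scaled by TMM and fitted with edgeR 4.0.16 under R 4.3.3, as one model with 6 group means and two-sided robust quasi-likelihood tests. Calls are at a Benjamini-Hochberg adjusted p under 0.05 over all tested genes of a contrast. CPM used TMM-scaled totals; log2 CPM for likeness used a prior count of 2. Levels between genes were divided by the MANE Select transcript length of GENCODE 44. Library totals of 23154484 to 31094797 counts limit counting error only.

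The members and lists were chosen with earlier results of these data known. All 10 members are named. Of each of 9 companion lists, the 3 genes with the smallest p at 72 h are named; others are said to be singled out. Likeness names the 3 genes nearest to the member with the largest rise and the largest fall at 72 h, among genes averaging at least 5 CPM.

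On simulated counts, 2-fold changes were recovered for 77.3%, 81.4% and 74.2% and 4-fold changes for 87.5%, 92.7% and 91.7% of the changed genes at 6 h, 48 h and 72 h among 16062 genes, with 4.22%, 2.33% and 4.19% of calls false. Each simulated gene had the same spread at all times, and no trend on transcript length was simulated. Far fewer genes were changed than were called in the data at 48 h and 72 h. These shares therefore describe the simulated setting only. Replicate numbers were not used as pairs: same-numbered libraries of a time correlated at -0.237 to 0.338 in their deviations. Alternatives used DESeq2 1.42.0, limma 3.58.1 (voom), other scalings and filters, replicate blocks, a length correction, times fitted apart and left-out libraries.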

Additional observations from a re-analysis of the deposited data

Results flagged for a closer look

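The effect of PRT3789 differed between 6 h and 48 h for 5 integrin chains by edgeR's interaction test. The log2 fold change at 48 h minus that at 6 h was -1.63 for ITGA3, -1.08 for ITGA5, -0.52 for ITGB5, -1.76 for ITGB6 and 0.92 for ITGB8. The adjusted p-values were 2.78e-06, 0.00754, 0.000197, 6.38e-08 and 0.00667 in that order, and the background share of genes called was 19.2%. The ITGB8 value was 0.83 with an adjusted p of 0.0654 without the 6 libraries with at least 100 KRT5 counts.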

How the results depend on the processing

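Over 1430 alternative values for single chains, 1383 kept their side of the threshold, 14 lost a call, 33 gained one and 0 changed sign among called values. Of values not called, 41 changed sign, 18 of them for the change of the ITGAV effect between 6 h and 48 h. The p at 6 h rests on a spread pooled over times, while ITGA3, for example, had a coefficient of variation of 18.7% in PRT3789 and 18.6% in DMSO libraries at 6 h and of 3.42% and 1.09% at 72 h. The cause of each change below was not tested.

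At 6 h, 209 genes were higher and 496 lower. The counts were 78 and 302 at an adjusted p under 0.01, 21 and 126 with each time fitted apart, and 111 and 245 without the 6 libraries with at least 100 KRT5 counts, an alternative chosen after seeing the data. DESeq2 called 318 and the length correction 404 higher. DESeq2, limma-voom, the replicate block within each time and the length correction each called 1 chain lower, ITGA5 (adjusted p = 0.0222, 0.0476, 0.0264 and 0.0129). Leaving out 1 library gave 121 to 574 genes higher, with 574 without DMSO replicate 1, 131 and 125 without DMSO replicates 2 and 3, and 130 and 121 without PRT3789 replicates 1 and 2. It gave 0 to 2 chains higher (ITGA6 and ITGB8 without DMSO replicate 1) and 0 to 1 lower. Scaling by total counts moved the share of calls that were higher to 44.3%, against 29.6% with TMM.

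At 48 h, 1 chain was higher at an adjusted p under 0.01, with no filter and without the KRT5 libraries (2055 genes higher), against 2 in the reported test, and 1 to 3 were higher with a library left out: 3 without DMSO replicate 3, where ITGB1 was called too (0.22, adjusted p = 0.0306). At 72 h, 2 chains were higher with the length correction and with each time fitted apart, the second being ITGB1; ITGAV was called lower with times fitted apart (-0.18, adjusted p = 0.00712). Without the KRT5 libraries 1871 genes were higher and 2260 lower at 72 h. ITGA2 at 48 h was called lower with the length correction (adjusted p = 0.00107) and with times fitted apart (0.0473). Total counts moved the share of calls that were higher to 57.6% at 48 h, against 50.4%.

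For the change of effect between 6 h and 48 h, 755 genes were higher and 1050 lower at an adjusted p under 0.01. Without the KRT5 libraries there were 600 and 849, with 0 chains higher. ITGB4 was called lower there with DESeq2 (adjusted p = 0.0302), the length correction (0.0147) and both blocks (0.0367 and 0.0431), and without DMSO 6 h replicate 1 (0.0102), PRT3789 6 h replicate 3 (0.0194) or DMSO 48 h replicate 3 (0.0307). For DMSO at 48 h against 6 h, 1805 and 2043 genes passed 0.01, 2091 were lower with total counts, and 965 and 850 were called without the KRT5 libraries, with 2 chains higher and 0 lower. The length correction called 2 chains lower, and leaving out 1 library 1 to 2 (2 without DMSO 6 h replicate 3 or DMSO 48 h replicate 3).

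The labels give groups shared replicate numbers that did not pair the libraries. With the replicate block within each time, DMSO at 48 h against 6 h had 1593 genes higher and 1855 lower and 2 chains higher and 3 lower, with ITGA2 and ITGB5 no longer called (adjusted p = 0.113 and 0.148). With that block 3623 genes were higher and 3734 lower at 72 h, and ITGB8 stood at 1.08.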
